A study of Saccharomyces cerevisiae with 10 samples.

Results

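The genes that encode the subunits of nuclear RNA polymerases I, II and III were described in budding yeast cells that lacked or overexpressed the histone demethylase gene JHD2. Members were chosen by name: every RPA, RPB or RPC gene followed by a number, plus RPO21, RPO26, RPO31 and RET1. The rule found 31 of the 7056 features in the deposited tables. By polymerase, 7 genes are specific to Pol I, 2 are shared by Pol I and Pol III, 5 are common to all 3 polymerases, 7 are specific to Pol II and 10 are specific to Pol III.

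RNA was measured in 10 samples of Saccharomyces cerevisiae of the BY4742 background, to learn how Jhd2 affects gene expression under different nutrition. Jhd2 is an enzyme that takes methyl groups off H3K4, a histone mark of transcribed genes. jhd2Δ cells, in which the gene was replaced by a drug resistance cassette, were compared with wild type (WT) cells in 3 media: YAD, with ammonium and glucose; YGD, with glutamate and glucose; and YAR, with ammonium and raffinose. Glucose-grown cells ferment, whereas raffinose releases the cells from glucose repression. Wild type cells carrying a high-copy plasmid that expressed JHD2 from the constitutive ADH1 promoter (OE) were compared with cells carrying an empty vector (EV) in YAR and in YAD. Each group had 3 replicate cultures, except jhd2Δ and WT in YAR, which had 2 each. For OE and EV in YAD, 1 group value a side was used.

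Pol I transcribes the large ribosomal RNA precursor, Pol II transcribes messenger RNAs, and Pol III transcribes transfer RNAs and the 5S ribosomal RNA. Each enzyme is built on a pair of large catalytic subunits, a dimer related to bacterial alpha, a stalk and a zinc ribbon subunit, and a set of small subunits is used by all of them. In growing yeast most transcription serves ribosome production, and many genes for Pol I and Pol III subunits belong to the same growth-linked programme as the ribosome biogenesis genes. Short promoter sequences are known for that programme. PAC is bound by the repressors Dot6 and Tod6, and RRPE is bound by Stb3.

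JHD2 itself checked the labels. It was at 0.0486 FPKM or less in the jhd2Δ libraries, against 3.97 to 17.5 FPKM in WT libraries, and at 1503 to 2213 FPKM in OE libraries, against 27.6 to 35.8 FPKM in EV libraries. FPKM is a fragment count normalized to transcript length and library size, so it can be compared between genes of different length. The labels give jhd2Δ cells in YAD and YGD as Mat a and the WT cells there as Mat alpha, and mating type markers matched those labels, so that deletion and mating type cannot be told apart in these media. In YAR both strains are labelled Mat a and carried the a-type markers. The OE and EV cells are labelled Mat alpha, yet in YAR 4 of the 6 libraries, cultures 1 and 2 of each group, held 157.1 to 368.8 FPKM of the a-specific receptor gene STE2 and 5.41 to 27.1 FPKM of the alpha pheromone gene MF(ALPHA)1. Culture 3 of OE and of EV held 16.8 to 35.2 FPKM of STE2 and 312.6 to 816.8 FPKM of MF(ALPHA)1. SAG1, another alpha-specific gene, was high in culture 3 of EV only, at 250.9 FPKM. It was at 18.5 FPKM in culture 3 of OE and at 20.1 to 26.4 FPKM in cultures 1 and 2. Per-library FPKM sums ran from 818862 to 1610619, and depth is unknown because no counts were used. Culture 3 of WT in YGD and culture 3 of EV in YAR stood apart, with 1252 and 2157 FPKM summed over the subunit genes, against 2034 and 2215 and against 3204 and 3420 FPKM in the other cultures of those groups. These are bulk cultures, in which fewer cells of a kind and less RNA per cell cannot be told apart.

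The 31 genes lie on 10 chromosomes. Their transcripts are 213 bases (RPB10 and RPC10) to 5202 bases (RPO21) long. In R64 coordinates, RPA190, the largest Pol I subunit, is at chrXV:960987-965981 on the plus strand, and RPA43, a Pol I stalk subunit, is at chrXV:959202-960182 on the minus strand, so that both start from the same 804-base intergenic stretch. RPO21, the largest Pol II subunit, is at chrIV:205360-210561, and RPO31, the largest Pol III subunit, is at chrXV:539763-544145, both on the minus strand. RPB10, a small subunit of all 3 enzymes, had the highest mean level of all members in 6 of the 8 groups with libraries. The lowest were RPB3 or RPC31 in the YAD, YGD and OE tables, at 3.103 to 12.87 FPKM. In the deletion table of YAR, RPB3 averaged 111 FPKM in jhd2Δ cells and 100 FPKM in WT cells, and RPC31 averaged 51.3 FPKM in jhd2Δ cells and 76.7 FPKM in WT cells. RPA12 and RPA14 were low there, at 26.5 and 14.9 FPKM in jhd2Δ cells and 10.7 and 25.8 FPKM in WT cells. In YAR they averaged 194.0 and 241.0 FPKM in OE cells and 136.1 and 264.2 FPKM in EV cells. RPA135 was alike, at 257.0 (jhd2Δ), 196.8 (WT), 250.6 (OE) and 200.9 FPKM (EV). What sets the 2 tables of YAR apart was not tested. The tables were normalized separately, so levels are compared below only within a table or within a library.

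Most promoters of Pol I and Pol III genes held the core of PAC, and most of those of Pol II genes did not. Windows of 300 bases, from 250 bases before to 50 bases after the start of the coding sequence, were read from RefSeq's R64 genome for all 31 members and searched on both strands, beside 6001 windows in all. The PAC core GATGAG was in 6 of 7 Pol I-specific windows, 2 of 2 shared, 8 of 10 Pol III-specific, 1 of 7 Pol II-specific and 0 of 5 common ones, against 20.4% of all windows. The single Pol II match, in RPB2, lies inside the coding sequence. The full PAC sequence GCGATGAG, which contains the core, was in 6 of 31 windows (RPA49, RPC19, RPC40, RPC25, RPC31 and RPC82), against 3.93% of all. RRPE, as AAAATTTT, was in 6 of 7 Pol I-specific, 1 of 2 shared, 5 of 10 Pol III-specific, 2 of 7 Pol II-specific and 2 of 5 common windows, against 9.03% of all. TTACCCG, a sequence bound by the factor Reb1, was in 4 of 31, against 7.08% of all. A match is only a stretch of letters. The stretches below are examples with the PAC core (either strand), in capitals, upstream of Pol I and Pol III subunit genes, among them both catalytic pairs. RRPE is also in capitals where it lies within the stretch (not in those of RPO31 and RPC82). The last line is the whole window of the Pol II gene RPO21, which has an RRPE and no PAC core.
RPA190 (chrXV:960785-960852, plus strand): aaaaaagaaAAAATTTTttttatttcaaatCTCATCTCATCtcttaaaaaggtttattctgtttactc
RPA135 (chrXVI:581268-581335, minus strand): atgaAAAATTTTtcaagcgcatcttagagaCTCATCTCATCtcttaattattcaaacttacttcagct
RPA49 (chrXIV:182703-182770, minus strand): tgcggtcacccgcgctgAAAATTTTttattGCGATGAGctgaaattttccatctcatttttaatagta
RPC40 (chrXVI:746883-746950, minus strand): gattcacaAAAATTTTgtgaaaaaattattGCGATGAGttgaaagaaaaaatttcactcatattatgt
RET1 (chrXV:733549-733616, minus strand): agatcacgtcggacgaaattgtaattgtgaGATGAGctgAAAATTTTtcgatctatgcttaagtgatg
RPO31 (chrXV:544206-544273, minus strand): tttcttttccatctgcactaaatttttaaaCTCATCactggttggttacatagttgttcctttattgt
RPC25 (chrXI:176638-176705, minus strand): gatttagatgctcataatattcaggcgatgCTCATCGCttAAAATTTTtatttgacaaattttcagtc
RPC82 (chrXVI:919126-919193, minus strand): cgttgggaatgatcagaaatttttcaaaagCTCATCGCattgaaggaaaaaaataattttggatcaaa
RPO21 (chrIV:210512-210811, minus strand): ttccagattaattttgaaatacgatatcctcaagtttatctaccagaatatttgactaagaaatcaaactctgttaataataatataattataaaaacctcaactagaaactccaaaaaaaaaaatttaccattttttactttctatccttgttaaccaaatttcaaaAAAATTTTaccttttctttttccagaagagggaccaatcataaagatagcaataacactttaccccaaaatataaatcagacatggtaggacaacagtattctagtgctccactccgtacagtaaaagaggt

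In the stretches of RPA190 and RPA135, the catalytic pair of Pol I, the core occurs as 2 overlapping copies a short way downstream of an RRPE. In RPA49, RPC40, RET1 and RPC25 both sequences also lie within the same stretch. RPA12, RPC17 and RPC11 are the 3 genes among the Pol I and Pol III classes without the core in the window.

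Raffinose set the classes apart. In empty-vector cells, by the values as deposited, Pol I and Pol III subunit genes mostly held their level or were higher in YAR than in YAD, whereas most Pol II-specific genes were lower. This comparison rests on 1 deposited group value a side, so no test was possible. Mating type markers differed among the EV cultures of YAR, and those of EV in YAD were not examined. The FPKM sums differed, at 945273 in EV YAR and 1490355 in EV YAD, and the median of 6264 features was a log2 ratio of −0.77. Of the 31 members, 4 were over 1.4-fold higher and 6 over 1.4-fold lower, against 7.06% of all features higher and 67% lower. Centred on the median of all features, 23 members were over 1.4-fold higher and 0 lower, against 24.1% of features higher and 21.6% lower.

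The Pol I-specific genes had log2 ratios of 0.00 to 0.42 (median 0.35), between the 84.7 and 92.2 percentiles of all features. RPA190 had 103.7 FPKM in EV YAR and 82.5 FPKM in EV YAD. RPA135, the second-largest Pol I subunit, had 147.7 FPKM in EV YAR and 115.1 FPKM in EV YAD. RPC40, the larger alpha-like subunit of Pol I and Pol III, was among the 4 genes over 1.4-fold higher, with 143.4 FPKM in EV YAR and 96.9 FPKM in EV YAD (log2 0.57). The Pol III-specific genes ran from −0.17 (RPC25, a stalk subunit) to 0.60 (RPC82, a subunit of the initiation subcomplex, with 23.6 FPKM in EV YAR and 15.6 FPKM in EV YAD). The other 2 genes past 1.4-fold were RPC34, a partner of RPC82, at 0.54, and RPC17, a stalk subunit, at 0.56.

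The 7 Pol II-specific genes ran from −1.21 to −0.21. RPB2, the second-largest subunit, had 36.4 FPKM in EV YAR and 84.3 FPKM in EV YAD, and RPO21 had 56.6 FPKM in EV YAR and 129.8 FPKM in EV YAD (log2 −1.20). RPB9, the zinc ribbon subunit, was the 1 gene of the class not past 1.4-fold lower, at −0.21. The 5 common genes lay between −0.40 and 0.11. The highest Pol II-specific value, that of RPB9, lay below the lowest Pol I-specific, shared and Pol III-specific value, that of RPC25. All 7 Pol II-specific genes were lower in raffinose as deposited, but 3 of them were above the median of all features.

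**Figure D1:**
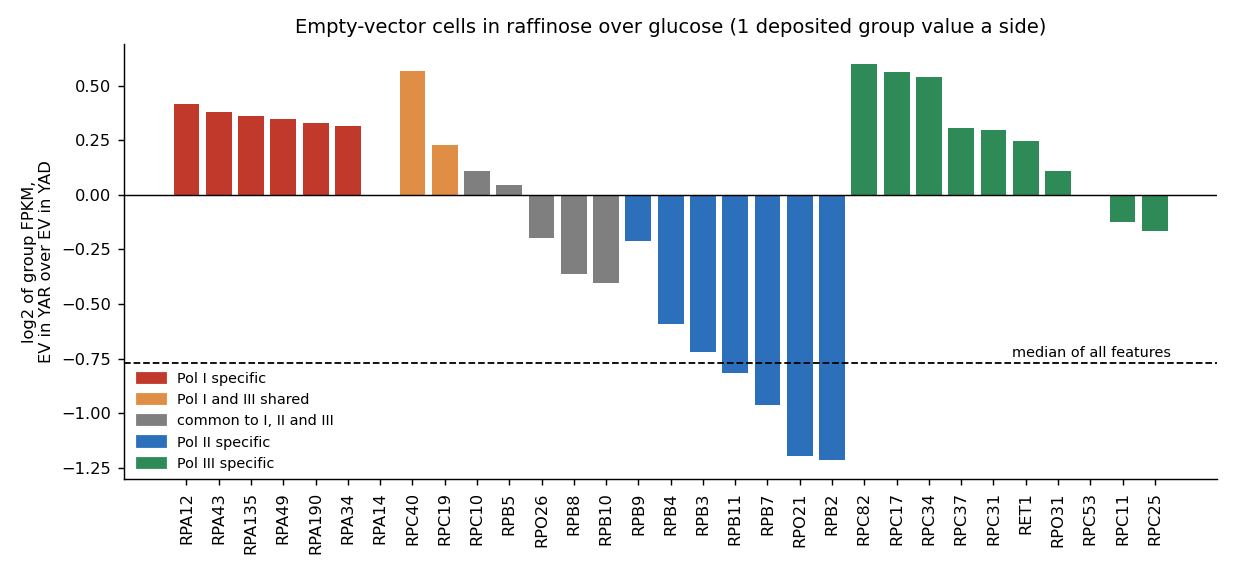
Log2 ratio of the deposited group FPKM, EV in YAR over EV in YAD, for each of the 31 genes (bars, coloured by polymerase class). The dashed line is the median of all features, −0.77. The Pol I and Pol III bars lie between −0.17 and 0.60 and the Pol II-specific bars between −1.21 and −0.21.

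Genes with a PAC core before the start were less lowered as a group across the genome. Such a core was found in 1022 of 6001 windows (17%). The median log2 ratio was −0.38 in the 936 of these with a ratio, against −0.84 in 4773 genes without it. Among members the medians were 0.31 with it (16 genes, all of the Pol I and Pol III classes) and −0.36 without it (15 genes). The 3 Pol I and Pol III genes without it, RPA12, RPC17 and RPC11, had a median of 0.42, with values between −0.13 and 0.56. These ratios are a description of 1 value a side, and the part of the motif in them was not tested.

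For the largest and second-largest subunits, the same order was seen within single libraries. A ratio of 2 genes inside 1 library does not depend on how that library was scaled. The log2 ratio of RPA190 over RPO21 was 0.10 to 1.43 (median 0.91) in the 10 YAR libraries and −0.97 to −0.02 (median −0.48) in the 12 glucose libraries. For RPA135 over RPB2 it was 1.24 to 1.81 in YAR and −0.12 to 0.60 in glucose. The media did not overlap in either ratio. RET1, the second-largest Pol III subunit, over RPB2 was −0.87 to −0.27 in YAR and −1.94 to −1.42 in glucose, again without overlap. RPO31 over RPO21 was −0.74 to 0.04 in YAR and −1.29 to −0.68 in glucose, where culture 3 of EV, at −0.74, was the only YAR library inside the glucose range. YAR and glucose libraries come from separate tables, so this difference was not tested. Ratios of the smaller subunits were not taken, and not all pairs kept this order. The zinc ribbon subunits RPA12 (Pol I) and RPB9 (Pol II) averaged 70.5 and 27.9 FPKM in WT YAD, but 10.7 and 121.4 FPKM in WT YAR. In EV YAR they averaged 136.1 and 54.8 FPKM.

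**Figure D2:**
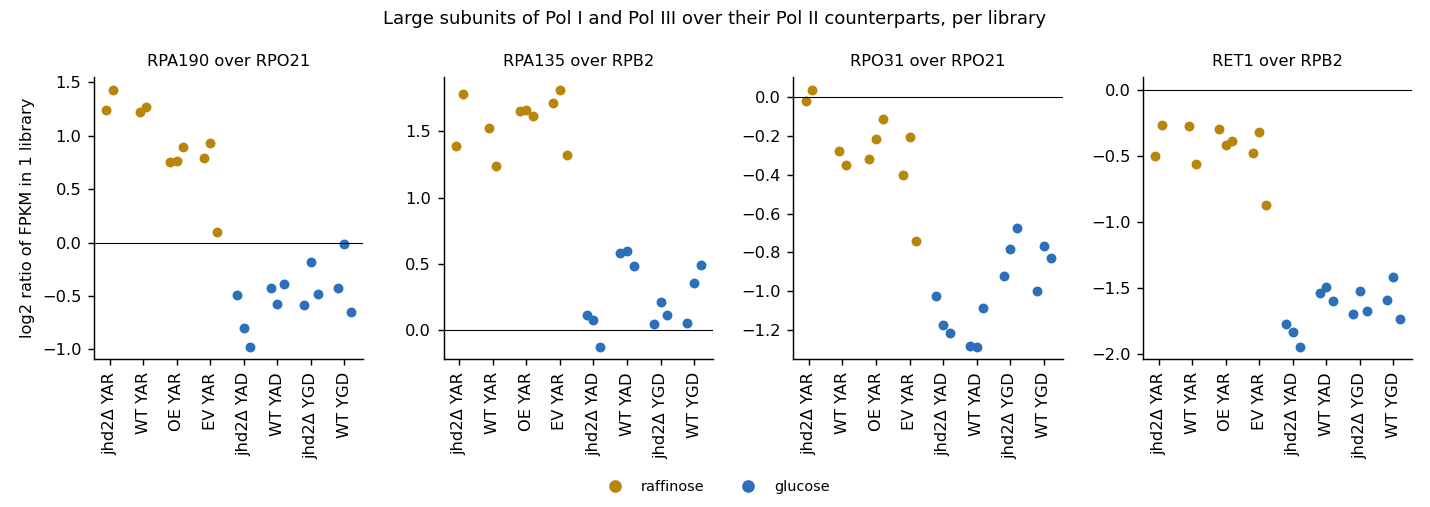
Log2 ratio of FPKM within 1 library (points) for the largest and second-largest subunits of Pol I and Pol III over those of Pol II, by group, raffinose groups left of glucose groups. RPA135 over RPB2 is 1.24 to 1.81 in the 10 raffinose libraries and −0.12 to 0.60 in the 12 glucose libraries.

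In YAD, 1 member passed the test between jhd2Δ and WT cells, the Pol II gene RPB3, and 0 of 7 Pol I-specific genes did. Differences were tested with limma on log2(FPKM + 1) over all features, and a gene was called when its Benjamini-Hochberg adjusted p was under 0.05 and its fold change over 1.4. The pseudocount of 1 makes fold changes of low genes smaller than the ratio of their FPKM. Of 6185 features 354 (5.72%) were called, and of the 31 members 1 fell and 0 rose. The members' median log2 difference was −0.06, against 0.01 over all features, and the Pol I-specific median was −0.31, with 5 of 7 genes negative.

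RPA135 had 72.1, 75.7 and 69.0 FPKM in jhd2Δ cells and 107.9, 93.6 and 101.3 FPKM in WT cells. Every jhd2Δ culture was below every WT culture. The share of all features whose groups do not overlap was not counted, so such statements here and below are descriptions only. Overlap was judged on FPKM as deposited, before the scaling of libraries used in the test. The log2 difference was −0.42 ± 0.08 (SE, adjusted p = 0.0294), which did not reach 1.4-fold. RPA190 had 52.8, 47.9 and 44.9 FPKM in jhd2Δ cells and 77.8, 58.2 and 69.3 FPKM in WT cells, also without overlap (−0.42 ± 0.13, adjusted p = 0.0816). RPA14, the smaller stalk subunit of Pol I, had 68.9, 70.9 and 68.3 FPKM in jhd2Δ cells and 97.7, 109.3 and 86.2 FPKM in WT cells, without overlap (−0.42 ± 0.12, adjusted p = 0.0734). Of the other Pol I-specific genes, RPA49 (−0.31) did not overlap either, while RPA43 (−0.26), RPA12 (0.07) and RPA34 (0.00) did. The large Pol II subunits overlapped between the strains as deposited. RPB2 had 66.6, 71.6 and 75.2 FPKM in jhd2Δ cells and 72.0, 61.9 and 72.5 FPKM in WT cells, and RPO21 had 73.9, 83.4 and 88.1 FPKM in jhd2Δ cells and 104.5, 86.9 and 90.9 FPKM in WT cells. After scaling neither overlapped, with RPB2 higher and RPO21 lower in jhd2Δ cells. Neither was called (0.11 ± 0.07 and −0.14 ± 0.07, adjusted p = 0.363 and 0.258). Within libraries, RPA135 over RPB2 averaged 0.02 ± 0.13 in jhd2Δ cells and 0.55 ± 0.06 in WT cells (SD, n = 3 each, log2), without overlap. RPA190 over RPO21 averaged −0.75 ± 0.25 in jhd2Δ cells and −0.46 ± 0.10 in WT cells (SD, n = 3 each, log2), with overlap. For Pol III, RPO31 had 36.3, 37.0 and 37.95 FPKM in jhd2Δ cells and 42.9, 35.6 and 42.8 FPKM in WT cells, which overlap. RET1 had 19.5, 20.1 and 19.5 FPKM in jhd2Δ cells and 24.8, 22.0 and 24.0 FPKM in WT cells, which do not, but it was not called (−0.19 ± 0.08, adjusted p = 0.153).

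The called gene was RPB3, the larger alpha-like subunit of Pol II. It had 3.097, 3.07 and 3.45 FPKM in jhd2Δ cells and 7.47, 6.03 and 4.52 FPKM in WT cells (−0.67 ± 0.16, adjusted p = 0.0435). The groups did not overlap, but the call was kept in only 5 of 12 alternative settings, and it was lost when culture 1 or 2 of WT or any 1 culture of jhd2Δ was left out (log2 −0.54 to −0.84, adjusted p 0.0143 to 0.136 over all 12). RPB3, at chrIX:312905-313861 on the plus strand, is overlapped on the other strand by YIL020C-A (149 bases) and YIL021C-A (270 bases). Weighted by length, RPB3 made up 9.91% to 10.8% of the FPKM of the 3 features in jhd2Δ cells and 16.4% to 21.1% in WT cells. In the jhd2Δ and WT libraries of YAR it made up 97.5% to 98.8%, but in the OE and EV libraries of YAR only 17.5% to 25.8%. YIL020C-A and YIL021C-A themselves were not called in YAD (log2 0.14 and 0.10, adjusted p = 0.549 and 0.635). How the assignment of reads to these overlapping features bears on RPB3 was not tested. RPA14, RPC19, RPC34 and RPC53 also overlap another feature. That of RPA14, YDR157W (8 bases), was itself called down in YAD (log2 −1.43, adjusted p = 0.0223).

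**Figure D3:**
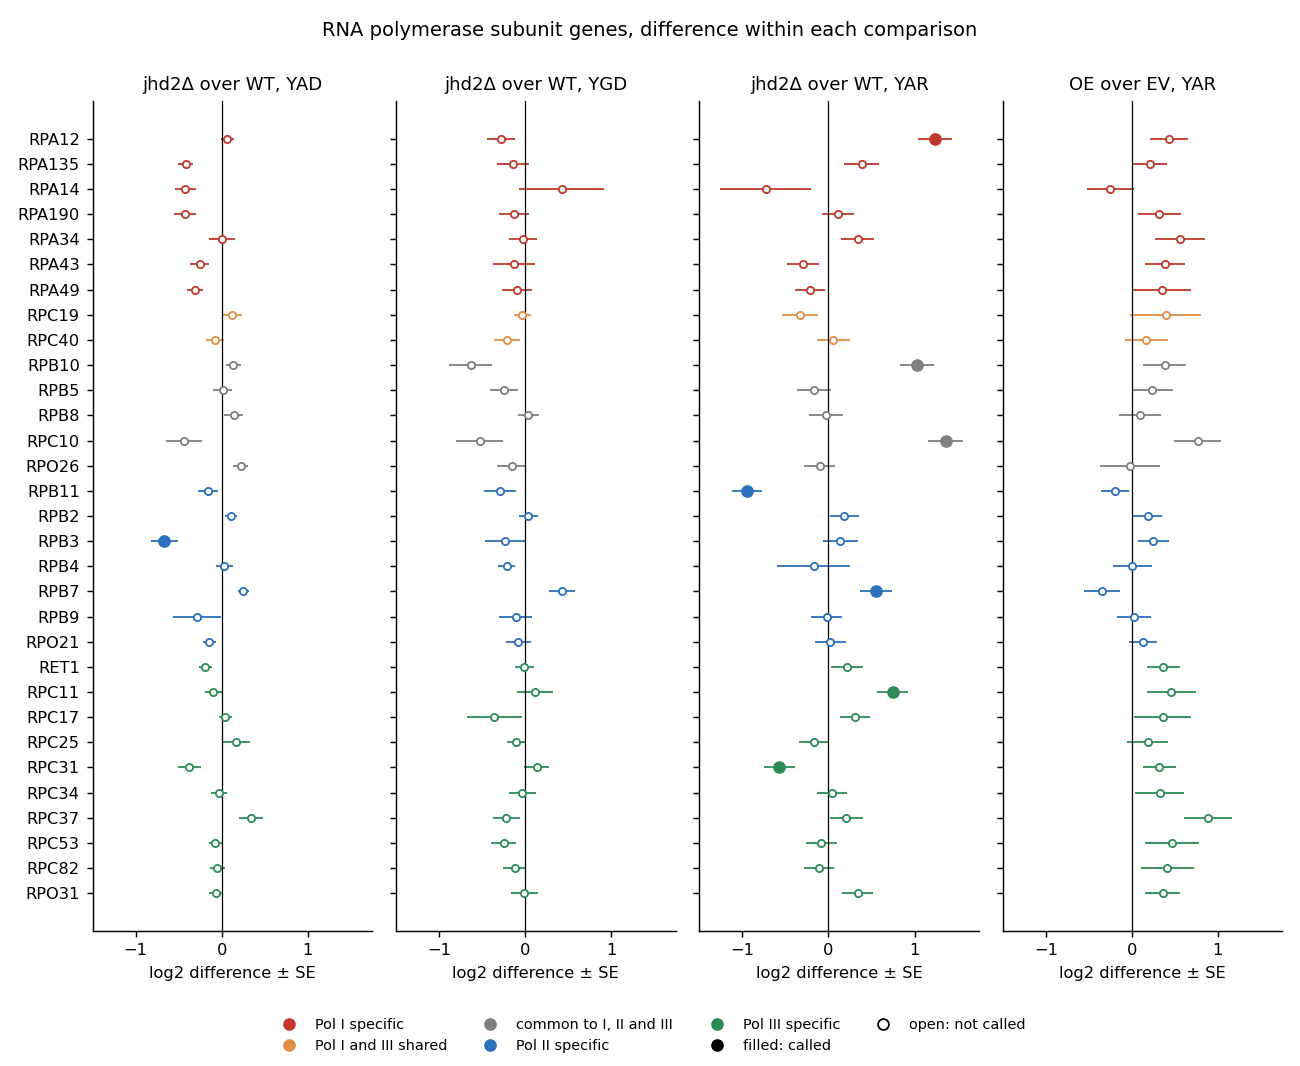
Log2 difference of each of the 31 genes (points with SE) in jhd2Δ over WT and in OE over EV, on the log2(FPKM + 1) scale. RPB3 is the 1 gene called in YAD, at −0.67, and the genes called in YAR run from −0.95 (RPB11) to 1.36 (RPC10).

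In YGD no member was called. Of all 6213 features, 21 (0.338%) were called, and 2 members and 426 features had an unadjusted p under 0.05. The members' median was −0.12, with 6 of 31 positive. Without the scaling of libraries the median of all features was 0.20, that of the members 0.10, and 22 members were positive. The median of the members was below that of all features with and without the scaling. RPA135 had 96.1, 121.0 and 87.6 FPKM in jhd2Δ cells and 90.7, 115.9 and 80.1 FPKM in WT cells, and RPA190 had 65.6, 95.4 and 58.1 FPKM in jhd2Δ cells and 70.6, 94.2 and 44.5 FPKM in WT cells. Both pairs of groups overlapped. RPB2 had 93.1, 104.5 and 80.9 FPKM in jhd2Δ cells and 87.5, 90.6 and 56.8 FPKM in WT cells, and RPO21 had 98.3, 107.8 and 81.0 FPKM in jhd2Δ cells and 94.9, 95.2 and 69.8 FPKM in WT cells, also with overlap. For Pol III, RPO31 had 52.0, 62.7 and 50.7 FPKM in jhd2Δ cells and 47.5, 56.1 and 39.3 FPKM in WT cells, and RET1 had 28.7, 36.5 and 25.3 FPKM in jhd2Δ cells and 29.1, 33.9 and 17.1 FPKM in WT cells. Culture 3 of WT was the lowest library in all 6 genes. The test of whether the jhd2Δ difference itself differed between YGD and YAD called 0 of 31 members (3 members at an unadjusted p under 0.05), against 3 of 6121 features (0.049%).

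In YAR 7 members differed between jhd2Δ and WT cells: 5 rose and 2 fell. Across all 5846 features 13.8% rose and 8.6% fell, so the members' share was close to the background in both directions. RPC10 and RPB10, small subunits of all 3 polymerases, RPA12, the zinc ribbon subunit of Pol I, its Pol III counterpart RPC11, and RPB7, a stalk subunit of Pol II, rose. RPB11, the smaller alpha-like subunit of Pol II, and RPC31, a subunit of the Pol III initiation subcomplex, fell. The median log2 difference was 0.04 over the members and −0.01 over all features.

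RPC10 had 231.5 and 215.8 FPKM in jhd2Δ cells and 103.0 and 72.4 FPKM in WT cells (log2 1.36 ± 0.20, adjusted p = 0.000259). RPA12 had 27.9 and 25.1 FPKM in jhd2Δ cells and 12.1 and 9.37 FPKM in WT cells (1.24 ± 0.20, adjusted p = 0.000458). RPB10 had 258.2 and 225.0 FPKM in jhd2Δ cells and 132.9 and 104.2 FPKM in WT cells (1.03 ± 0.19, adjusted p = 0.00205). In these 3 genes each jhd2Δ culture was over 1.5 times the higher WT culture. RPC11 had 133.4 and 123.9 FPKM in jhd2Δ cells and 69.0 and 84.4 FPKM in WT cells (0.74 ± 0.18, adjusted p = 0.00919). RPB7 had 82.6 and 106.5 FPKM in jhd2Δ cells and 62.4 and 65.2 FPKM in WT cells (0.55 ± 0.18, adjusted p = 0.0423). The groups did not overlap in either gene.

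RPB11 had 64.9 and 58.8 FPKM in jhd2Δ cells and 117.4 and 123.5 FPKM in WT cells (−0.95 ± 0.17, adjusted p = 0.0015). RPC31 had 46.5 and 56.1 FPKM in jhd2Δ cells and 70.0 and 83.4 FPKM in WT cells (−0.57 ± 0.18, adjusted p = 0.0349). Both WT cultures were above both jhd2Δ cultures in each gene. RPB11 and RPB3 form the alpha-like dimer of Pol II, and RPB3 had 93.6 and 127.8 FPKM in jhd2Δ cells and 87.3 and 113.2 FPKM in WT cells, which overlap.

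None of the 6 large subunit genes was called. RPA190 had 124.7 and 145.0 FPKM in jhd2Δ cells and 136.6 and 113.8 FPKM in WT cells, which overlap. RPA135 had 229.1 and 284.9 FPKM in jhd2Δ cells and 220.6 and 173.0 FPKM in WT cells, without overlap (0.39 ± 0.21, adjusted p = 0.195). RPO21 had 52.9 and 53.8 FPKM in jhd2Δ cells and 58.5 and 47.2 FPKM in WT cells, which overlap. RPB2 had 87.5 and 82.8 FPKM in jhd2Δ cells and 76.5 and 73.1 FPKM in WT cells, without overlap (0.18 ± 0.17, adjusted p = 0.478). RPO31 had 52.3 and 55.3 FPKM in jhd2Δ cells and 48.3 and 37.1 FPKM in WT cells, also without overlap (0.34 ± 0.18, adjusted p = 0.2). RET1 had 61.8 and 68.8 FPKM in jhd2Δ cells and 63.4 and 49.5 FPKM in WT cells, which overlap.

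**Figure D4:**
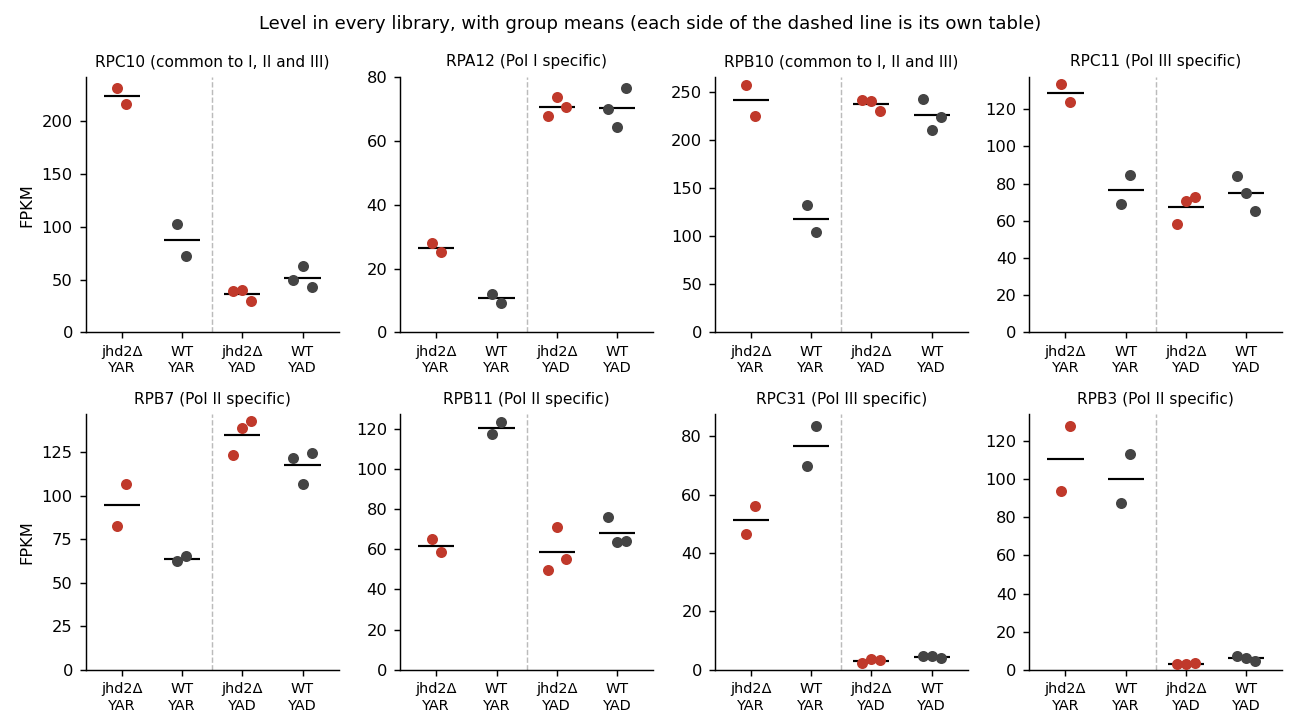
FPKM of the 8 genes called in YAR or YAD in each library (points) with group means (lines), jhd2Δ left of WT. YAR and YAD values come from separately normalized tables. In YAR RPC10 sits at 231.5 and 215.8 in jhd2Δ cells and at 103.0 and 72.4 in WT cells, and RPB11 at 64.9 and 58.8 in jhd2Δ cells and at 117.4 and 123.5 in WT cells.

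With 2 cultures a group, leaving out 1 leaves a group of 1 culture, which is assumed to vary like the other group. Without culture 2 of WT 0 members were called and without culture 1 of WT only RPC10 was, with 42 and 120 calls over all features, against 1308 with all cultures. Without culture 1 or 2 of jhd2Δ 6 and 8 members were called. The log2 differences kept their sign over all 10 alternative settings, at 1.01 to 1.61 for RPC10, 0.908 to 1.398 for RPA12 and −1.30 to −0.89 for RPB11. Scaling the libraries to the same FPKM sum moved the median of all features to −0.35 and that of the members to −0.30 and gave 9 calls, which no longer included RPB7 and RPC11.

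The 5 genes that rose are short, at 213 to 516 bases. The difference moved with transcript length over all reading frames tested. The median was 0.29 for those of up to 300 bases, of which 23.7% rose and 13.0% fell. It was 0.04 for 300 to 600 bases (19.9% rose, 13.6% fell) and −0.08 above 2000 bases (4.4% rose, 5.12% fell). Short frames were thus called more often in both directions. Of the 5 genes, RPB10 and RPC10 are up to 300 bases long and the others 300 to 600. RPB11, at 363 bases, fell. The part of length in these differences was not tested.

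**Figure D5:**
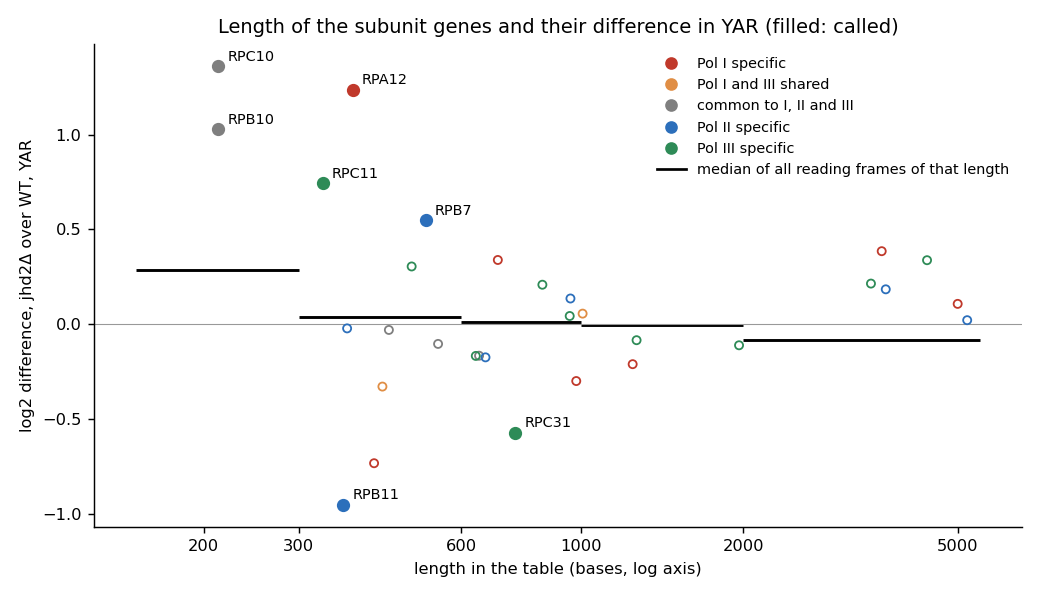
Log2 difference of jhd2Δ over WT in YAR against transcript length (log axis) for the 31 genes (points), with medians of all reading frames in bins of length (lines). The 5 genes called up are 213 to 516 bases long, and the median of all reading frames is 0.29 up to 300 bases and −0.08 above 2000 bases.

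The signed log2 difference of jhd2Δ over WT was higher in YAR than in YAD for 6 members and lower for 1, by a test of the difference between media. For RPB3 it was 0.14 in YAR and −0.67 in YAD, and for RPB11 −0.95 in YAR and −0.16 in YAD. Among 5714 features tested in both, 15.2% were called up and 10.2% down. RPC10 differed by 1.80 ± 0.32 (adjusted p = 0.00382), RPA12 by 1.17 ± 0.17 (adjusted p = 0.00117), RPB10 by 0.89 ± 0.19 (adjusted p = 0.00739) and RPC11 by 0.84 ± 0.18 (adjusted p = 0.00879). RPC10 had 39.3, 39.8 and 29.96 FPKM in jhd2Δ cells and 49.8, 63.2 and 42.5 FPKM in WT cells in YAD, the reverse order from YAR, though it was not called in YAD (−0.44 ± 0.21, adjusted p = 0.224). In YAD RPA12 had 67.9, 73.8 and 70.7 FPKM in jhd2Δ cells and 70.2, 64.5 and 76.7 FPKM in WT cells, and RPB10 had 242.5, 241.3 and 231.1 FPKM in jhd2Δ cells and 242.9, 210.8 and 224.6 FPKM in WT cells. RPC11 had 58.2, 70.6 and 72.5 FPKM in jhd2Δ cells and 84.0, 74.8 and 65.4 FPKM in WT cells. The groups overlap in all 3 genes. RPA135 differed by 0.80 ± 0.20 (adjusted p = 0.0136) and RPB3 by 0.80 ± 0.27 (adjusted p = 0.0473). RPB11 differed by −0.79 ± 0.18 (adjusted p = 0.0112), with 49.7, 71.3 and 55.4 FPKM in jhd2Δ cells and 76.3, 63.4 and 64.2 FPKM in WT cells in YAD. RPA12, RPB10, RPB11 and RPC10 kept their calls in all 15 alternative settings, RPC11 in 14, RPA135 in 13 and RPB3 in 4. WT cells are labelled Mat alpha in YAD and Mat a in YAR, so a difference of mating type enters this contrast.

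Overexpression of JHD2 in YAR gave no call among the members. Of 6331 features 1 (0.0158%) was called, and 2 members and 904 features had an unadjusted p under 0.05. The members' median log2 difference was 0.32, with 27 of 31 positive, against −0.01 over all features, and all 10 Pol III-specific genes were positive, at 0.18 to 0.89. These values rested on culture 3 of EV, in which RPA190 was at 92.4 FPKM, against 167.4 and 192.7 FPKM in the other EV cultures and 183.8, 212.3 and 196.9 FPKM in OE cultures. Without it the members' median was 0.08 with 20 positive. Leaving out culture 3 of both groups, a setting chosen after the data were seen, gave 0.05. RPC37, a subunit of the Pol III termination subcomplex, had the largest difference, 0.89 ± 0.28 (adjusted p = 0.293).

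The catalytic subunits followed the same culture. RPA135 had 232.6, 273.9 and 245.4 FPKM in OE cells and 214.6, 242.7 and 145.6 FPKM in EV cells. RPO31 had 87.2, 107.8 and 98.3 FPKM in OE cells and 73.2, 87.5 and 51.5 FPKM in EV cells. RET1 had 60.1, 64.9 and 61.5 FPKM in OE cells and 47.1, 55.4 and 31.9 FPKM in EV cells. Culture 3 of EV was the lowest library in all 3 genes. RPO21 had 108.7, 125.0 and 106.1 FPKM in OE cells and 96.5, 100.9 and 86.1 FPKM in EV cells, and RPB2 had 73.7, 86.7 and 80.2 FPKM in OE cells and 65.4, 69.1 and 58.3 FPKM in EV cells. Both were without overlap as deposited but overlapped after the scaling used in the test. Neither was called (0.12 ± 0.16 and 0.18 ± 0.17, adjusted p = 0.721 and 0.616).

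Deletion and overexpression were also compared with each other. The difference between the overexpression and the deletion difference in YAR was called for 0 of 31 members (4 at an unadjusted p under 0.05), against 79 of 5793 features (1.36%). RPC10, for example, had 101.2, 163.2 and 151.7 FPKM in OE cells and 68.2, 67.6 and 82.9 FPKM in EV cells (0.76 ± 0.28, adjusted p = 0.323), in the same direction as in jhd2Δ cells. In YAD, with 1 group value a side, RPB9 alone was over 1.4-fold lower in OE cells, at 26.5 FPKM against 37.2 FPKM in EV cells (log2 −0.49), and 0 members were over 1.4-fold higher. Over all 6253 features 6.65% were lower and 2.16% higher. Centred on the median of all features, RPB9 no longer passed 1.4-fold.

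Other transcription genes were counted in 7 lists. Over all features the raffinose ratio in EV cells had a median of −0.77, and 67% were over 1.4-fold lower. That of the Pol III initiation factors had a median of −1.25, with 8 of 8 over 1.4-fold lower, while the Pol III subunits had 0.27. The Pol I initiation factors had −0.37 (3 of 8 lower), the Pol II general factors −0.84 (15 of 18 lower), the Pol II elongation factors −1.11 (4 of 4 lower), the assembly and import factors −0.13, the regulators of Pol I, Pol III and ribosome biogenesis genes −0.92 (5 of 6 lower) and the mitochondrial RNA polymerase genes 0.00. Centred on the median of all features, 4 of 8 Pol III initiation factors, 1 of 8 Pol I initiation factors, 1 of 18 Pol II general factors, 1 of 4 elongation factors and 2 of 6 regulators were over 1.4-fold lower, against 21.6% of all features, and the Pol I initiation factors had a median of 0.40. In jhd2Δ cells in YAD, 4 list genes were called, 3 of 18 Pol II general factors and 1 of 6 regulators, and none in the other lists. Of all features 5.72% were called. The Pol II general factor TFB3, a TFIIH subunit, rose (0.83 ± 0.13, adjusted p = 0.0141). TFG2, of TFIIF, SSL1, of TFIIH, and SCH9, a kinase that acts on ribosome biogenesis, fell (−0.90, −0.63 and −0.63, adjusted p = 0.0107, 0.0214 and 0.00663). TFG2 and SSL1 were low, averaging 1.41 and 3.46 FPKM in jhd2Δ cells and 3.65 and 6.14 FPKM in WT cells. In YAR, where 8.6% of all features fell and 13.8% rose, 3 of 8 Pol I initiation factors fell in jhd2Δ cells, namely RRN11 (−0.99), UAF30 (−0.78) and RRN10 (−0.54), with adjusted p of 0.00173, 0.00724 and 0.0362. Of the 18 Pol II general factors 1 rose, the small TFIIH subunit TFB5 (2.23 ± 0.31, adjusted p = 0.00559), and 2 fell, TOA1 and CCL1. The assembly factors RTR1 and RBA50 and the regulators SCH9 and TOD6 also fell, while 0 of 8 Pol III initiation factors were called (0 at an unadjusted p under 0.05).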

How the data were processed

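RNA was rRNA-depleted, spiked with external controls, made into stranded TruSeq libraries and sequenced single-end, per the labels. The authors aligned reads with TopHat2 2.0.12 and Bowtie2 2.1.0 and deposited FPKM values per replicate and per group from Cufflinks and Cuffdiff 2.1.1, per the submitters' processing notes. How quantification handled strand was not stated in the sources at hand. Columns of fold changes and p-values of the authors' own comparisons and the spike-in rows were not used. The 22 replicate columns were used. A sheet of 6 further columns named for YAD held values identical to the YAR sheet for 7041 of 7041 features and was left out, so that OE in YAD rests on group values. Coordinates in the tables matched R64 for 6033 of 6045 features compared.

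Within each table, libraries were scaled by the median of ratios, features were kept where FPKM averaged at least 1 (all 31 members passed in each comparison), and log2(FPKM + 1) was tested two-sided with limma 3.58.1 in R 4.3.3 (trend and robust options), with Benjamini-Hochberg adjustment over all features tested. Differences between effects were contrasts in 1 model. The fit was checked on simulated data. P-values set each difference against the spread between replicate cultures, which limma moderates over all features. In the overexpression table that spread includes cultures with different mating type markers. Values in every library were given for called members and the 2 largest subunits of each polymerase, and in YAD also for RPA14, picked after its values were seen. The members and lists were chosen with earlier results of these data known. Alternatives were other scalings, a pseudocount of 0.1, no filter, no trend or robust option, a replicate block and leaving out each culture.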

Additional observations from a re-analysis of the deposited data

Results flagged for a closer look

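Each of 7 subunit genes had a jhd2Δ difference in YAR that differed from that in YAD by the test of the difference itself (limma, log2 scale, YAR minus YAD). The values were 1.80 for RPC10, 1.17 for RPA12, 0.89 for RPB10, 0.84 for RPC11, 0.80 for RPA135, 0.80 for RPB3 and −0.79 for RPB11, with adjusted p between 0.00117 and 0.0473. By the same test 15.2% of all features were called up and 10.2% down, so that 7 of 31 members is no more than the background. The call of RPB3 was kept in 4 of 15 alternative settings. In YAR 2 cultures a group were available, and the WT cells of the 2 media carry different mating type labels. The part of either in these differences was not tested.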

How the results depend on the processing

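No member called in a comparison changed sign under any alternative: of 187 alternative values of 15 called differences, 139 stayed past the threshold and 48 did not. In YAD the 1 member called became 3 (RPA135 and RPA14 added) with libraries scaled to the same FPKM sum, 0 without the trend and robust options, and 0 to 1 when 1 culture was left out. In YAR the 7 became 4 without those options and 0 to 8 when 1 culture was left out. For the overexpression minus deletion difference the 0 became 3 (RPA43, RPB11 and RPC31) with equal FPKM sums and 0 to 1 when 1 culture was left out. For the YAR minus YAD difference the 7 became 5 to 9. In YGD, in OE over EV in YAR and for YGD minus YAD, 0 were called under each alternative. Centring changed 10 members past 1.4-fold in EV YAR over EV YAD to 23, and 1 in OE over EV in YAD to 0.

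Replicate numbers were not used to pair the cultures in the main test. The correlation of same-numbered deviations was 0.16, 0.06 and 0.11 in YAD, against −0.15 to 0.05 between different numbers there. It was −0.11, 0.02 and 0.10 in YGD, −0.04 in YAR and 0.16, −0.04 and 0.12 in the overexpression table. In the overexpression table the numbers also went with mating type markers. Cultures 1 and 2 of OE and EV held more STE2, and culture 3 of both held more MF(ALPHA)1, while SAG1 was higher in culture 3 of EV only. A replicate block gave 0 called members in YAD, 2 in YAR, 0 in YGD and 0 in OE over EV. Over all features it called 180 in YAD, against 354, 174 in YAR, against 1308, and 13 in YGD, against 21. Without the trend and robust options 410 were called in YAR, and with equal FPKM sums 2107. In OE over EV, 2 to 216 features were called when cultures were left out in turn, the highest without culture 2 of EV. Counts behind the FPKM were not used here, so depth limits of single values are unknown.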
